A study of Mus musculus with 8 samples.

Results

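The onset of 5-hydroxymethylcytosine (5hmC) was followed over the first 6 h after a TET catalytic domain was switched on in cells that otherwise lack TET enzymes. The comparison holds the 5 libraries whose titles give 6 h of doxycycline (A and B) or an untreated control at 0 h (A, B and C), out of 8 libraries in the series, with every CpG call they contain: 716139 of 1849087 calls. TET dioxygenases oxidise 5-methylcytosine to 5hmC and further to formyl- and carboxylcytosine, which base excision repair can replace with unmodified cytosine. In mouse embryonic stem cells 5hmC is known mainly from gene bodies and enhancers, where the DNA is methylated, while most CpG-rich promoters carry little methylation. The catalytic domain of TET3 is the part that carries out the oxidation. The full-length protein also has an N-terminal CXXC domain that binds CpG-containing DNA.

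The cells were a mouse embryonic stem cell line with TET1, TET2 and TET3 inactivated. A PiggyBac transposon in the line carries the catalytic domain of mouse TET3 under doxycycline control, linked to an mCherry reporter. All groups share this genotype and a medium with 50 µg/ml ascorbate. The 0 h group received no doxycycline, the 6 h group 1 µM doxycycline for 6 h, and 3 further libraries, used here only for side values, the same dose for 12 h. The model is thus 1 line, with a catalytic domain in place of a whole TET protein. Nothing in the labels tells whether a group's libraries came from separate cultures, so p-values measure the spread between these libraries, which may be technical. In the fits of regions (limma), each variance was moderated, that is drawn towards a value shared by the regions of a family. Very small p-values there rest on that shared variance, over regions that are not independent, and not on the 5 libraries alone. CpG calls of DNA show neither the cell type nor the loss of the TET genes, and neither label was checked.

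In APOBEC-coupled sequencing (ACE-seq), 5hmC is shielded by glucosylation and the other cytosines are deaminated. A call is 1 CpG cytosine on 1 read, and the level is the percentage of calls that were undeaminated, which counts 5hmC together with cytosines that escaped deamination. The untreated libraries held 157700, 87030 and 102177 calls and the 6 h libraries 75023 and 294209. In every library of the comparison, 97.0 to 97.7% of calls lay at positions called once in that library, so levels describe pooled regions and not single CpGs. Levels of whole libraries were 0.899%, 1.23% and 1.26% in untreated A, B and C, against 6.57% and 6.27% in 6 h A and B. The 95% Wilson interval of the shallowest library, 6 h A, ran from 6.39 to 6.75%, counting error only. The 2 groups did not overlap, and their means stood 5.29 points apart (6.42% ± 0.212, SD, n = 2, against 1.13% ± 0.199, SD, n = 3). A two-sided exact permutation test gave p = 0.2, the smallest value that 2 against 3 libraries allow (0.2 after adjustment over 3 such tests). All libraries were spread over 3 sequencing runs, within which the rise was 5.10, 5.37 and 5.23 points.

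Where the early 5hmC lay was tested on deviations, that is a region's level minus the level of the same library. A deviation of 0 between 6 h and 0 h means that the region rose by the same number of points as its library. By the number of CpG calls on a read, the rise was largest on reads of intermediate CpG number and smallest on CpG-dense reads. Calls that were alone on their read stood at 6.53% and 6.30% at 6 h, against 0.861%, 1.35% and 1.29% in untreated A, B and C. Reads with 4 or 5 CpGs reached 7.52% and 7.25%, from 0.834%, 1.39% and 1.25%. Reads with 11 or more CpGs reached only 2.23% and 2.01%, from 1.52%, 0.992% and 1.19%. In each of these classes both 6 h libraries lay above all untreated ones, but on the CpG-dense reads the group means were only 0.887 points apart.

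Of the 7 classes, 5 deviated from their library (71.4%, limma, adjusted p under 0.05). Above the library lay reads with 2 CpGs (0.455 ± 0.0825 points, SE, adjusted p = 0.00173), with 3 (0.861 ± 0.0895, adjusted p = 0.000123) and with 4 or 5 (0.979 ± 0.116, adjusted p = 0.000183). Below it lay reads with 8 to 10 CpGs (-0.909 ± 0.171, adjusted p = 0.00173) and with 11 or more (-4.55 ± 0.371, adjusted p = 5.15e-05). Single-CpG reads and reads with 6 or 7 CpGs did not pass (-0.093 ± 0.164 points for the latter). Without 6 h B, which leaves 1 library at 6 h, 2 classes were called, those with 3 and with 11 or more CpGs. A quasi-binomial test on the counts called 3, of which 1 lay above and 2 below. With 1 call per read, the classes of 2 CpGs (0.248 points, adjusted p = 0.0716) and of 8 to 10 CpGs (-0.843 points, adjusted p = 0.168) did not pass. The deviations of the classes sum to about 0 when weighted by calls, so they are not independent of one another.

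**Figure D1:**
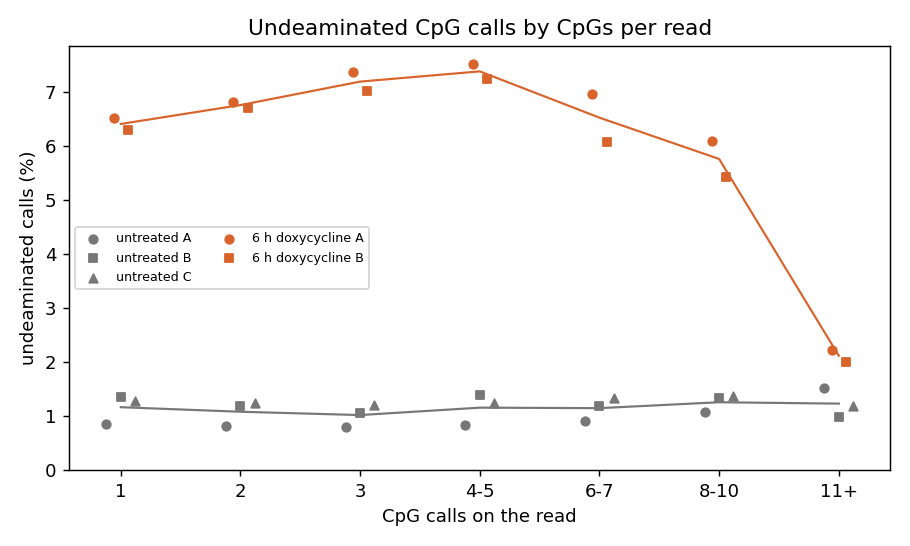
Percentage of undeaminated CpG calls (y axis) by the number of CpG calls on the read (x axis). Each point is 1 library, grey untreated and orange 6 h, and the lines join the group means. The 6 h level climbs to 7.38% on reads with 4 or 5 CpGs and falls to 2.12% on reads with 11 or more, while the untreated mean stays between 1.02 and 1.26%.

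The rise of a class can be divided by the rise of the whole library. On reads with 11 or more CpGs the level rose by 0.887 points, which is 16.8% of the library's 5.29 points, and at 12 h the ratio was 21.2%. On reads with 8 to 10 CpGs the ratio was 85.2% at 6 h and 72.4% at 12 h, and on reads with 3 CpGs 117% and 112%. Both times are set against the same 3 untreated libraries, and the difference between them was not tested.

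Around gene ends the early level followed distance. Ends of protein-coding genes were taken from coordinates, and calls were split by distance and by position inside or outside a gene body. Inside gene bodies, calls within 0.5 kb of an end stood at 2.97% and 2.85% at 6 h, against 1.32%, 0.769% and 0.882% untreated. Between 0.5 and 1 kb the 6 h libraries had 3.94% and 4.40%, and between 1 and 2 kb 5.70% and 6.29%. Between 5 and 20 kb they had 7.68% and 7.15%. The 6 h libraries thus lay above all untreated ones in each of these bins, by a margin that grew away from the end.

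Of 12 distance bins, 5 were called (41.7%, limma). Inside genes the first 0.5 kb deviated by -3.49 ± 0.286 points (adjusted p = 2.8e-13) and the next 0.5 kb by -2.19 ± 0.389 (adjusted p = 1.32e-05). Outside genes only the first 0.5 kb was called on the low side (-2.52 ± 0.462, adjusted p = 1.49e-05), with 4.67% and 3.30% at 6 h. Between 0.5 and 1 kb outside, the deviation was 0.594 ± 0.716 points and did not pass. The bins on the high side were gene interiors 5 to 20 kb from an end (0.890 ± 0.181, adjusted p = 5.66e-05) and more than 20 kb from one (0.579 ± 0.151, adjusted p = 0.00116). DNA more than 20 kb outside genes rose with its library (-0.0526 ± 0.130, not called). With levels standardised for the CpGs per read, the deviations near ends were smaller by a factor of over 2. They came to -0.863 points in the first 0.5 kb inside genes (adjusted p = 0.00634), -0.902 in the next 0.5 kb (adjusted p = 0.0284) and -1.01 in the first 0.5 kb outside (adjusted p = 0.0346). Interiors more than 20 kb from an end no longer passed (0.22 points, adjusted p = 0.161), and 5 bins were called, 1 above and 4 below, against 2 above and 3 below as first fitted. With 1 call per read, the first 0.5 kb inside genes passed at -1.44 points (adjusted p = 0.00367). The next 0.5 kb inside (-0.173 points, adjusted p = 0.751), the first 0.5 kb outside (-0.415, adjusted p = 0.548) and the far interiors (0.146, adjusted p = 0.356) did not. On the logit scale, 2 bins were called and both lay below. Without 6 h B no bin passed (limma), and the quasi-binomial test called none, with 1 at an unadjusted p under 0.05. In the first 0.5 kb inside genes, the deviation without that library was -3.64 points (adjusted p = 0.0775).

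Gene ends hold starts and 3′ ends, and a start can be CpG-rich or CpG-poor. Starts were therefore placed with their strand from the RefSeq promoter table of GRCm38.p6, which gave 21238 starts of 17469 protein-coding genes. They were ranked by the CpGs in the window from 250 bases before to 50 after the start. The quartiles held 0 to 4, 5 to 13, 14 to 24 and 25 to 67 CpGs. As examples, 2 windows of the fourth and 2 of the second quartile are printed, those with the most 6 h calls among windows also called at 0 h. Stretches of 10 kb with at least 200 calls were left out. Choosing by calls favours windows with many CpGs, so the spacing shown need not be typical of a quartile. Every CG is in capitals, and each window reads 5′ to 3′ on the gene's strand. Spast encodes a microtubule-severing ATPase (chr17:74338737-74339036, plus strand, 38 CpGs) and Eme2 a subunit of a structure-specific endonuclease (chr17:24895038-24895337, minus strand, 37 CpGs).
Spast: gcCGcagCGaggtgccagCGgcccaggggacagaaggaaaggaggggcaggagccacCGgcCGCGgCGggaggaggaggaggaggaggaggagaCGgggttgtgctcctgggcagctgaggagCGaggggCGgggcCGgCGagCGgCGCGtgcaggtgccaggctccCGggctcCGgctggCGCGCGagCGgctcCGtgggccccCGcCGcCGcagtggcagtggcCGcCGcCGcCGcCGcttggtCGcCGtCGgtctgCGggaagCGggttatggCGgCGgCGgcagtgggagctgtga
Eme2: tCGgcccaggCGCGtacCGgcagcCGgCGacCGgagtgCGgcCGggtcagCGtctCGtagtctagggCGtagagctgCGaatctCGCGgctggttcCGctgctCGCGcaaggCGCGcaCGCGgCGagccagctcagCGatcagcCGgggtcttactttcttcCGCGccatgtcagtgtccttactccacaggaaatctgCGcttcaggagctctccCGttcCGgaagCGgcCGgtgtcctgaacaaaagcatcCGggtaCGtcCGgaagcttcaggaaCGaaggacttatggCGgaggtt
Dll3 encodes a ligand-like protein of the Notch pathway (chr7:28301736-28302035, minus strand, 11 CpGs), and B230307C23Rik is a gene without a settled name (chr16:97997086-97997385, plus strand, 11 CpGs).
Dll3: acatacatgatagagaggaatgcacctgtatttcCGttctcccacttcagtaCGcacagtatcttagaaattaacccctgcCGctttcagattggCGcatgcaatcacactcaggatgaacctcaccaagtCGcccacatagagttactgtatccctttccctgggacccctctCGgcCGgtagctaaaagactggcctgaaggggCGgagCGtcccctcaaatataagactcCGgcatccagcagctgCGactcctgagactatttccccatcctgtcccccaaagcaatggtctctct
B230307C23Rik: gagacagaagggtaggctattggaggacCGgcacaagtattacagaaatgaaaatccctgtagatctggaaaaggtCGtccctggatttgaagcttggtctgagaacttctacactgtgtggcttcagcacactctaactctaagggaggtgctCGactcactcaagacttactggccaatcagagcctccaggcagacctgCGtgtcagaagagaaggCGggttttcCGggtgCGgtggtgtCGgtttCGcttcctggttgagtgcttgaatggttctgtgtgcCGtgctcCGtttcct
At 6 h, 0 of 38 calls in the Spast window and 0 of 30 in the Eme2 window were undeaminated, each on 2 reads. A count of 0 allows up to 7.89% and 10.0%, or more, since calls on 1 read are not independent. In the CpG-poor windows it was 1 of 9 calls for Dll3 on 2 reads and 0 of 8 for B230307C23Rik on 1 read. Single windows therefore could not show a level, and the starts were pooled.

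Pooled, starts of the 2 CpG-rich quartiles stayed close to the untreated level at 6 h, and starts of the 2 CpG-poor quartiles did not. Within 0.5 kb of the CpG-rich starts the levels were 1.33%, 0.667% and 1.14% in untreated A, B and C and 1.78% and 1.39% at 6 h. Within 0.5 kb of the CpG-poor starts they were 0.783%, 1.64% and 1.15% untreated and 6.13% and 4.67% at 6 h. The CpG-rich starts differed by 0.539 points between the group means and the CpG-poor ones by 4.21 points. Both exact permutation tests gave p = 0.2, the smallest possible (0.25 after adjustment over 5 such tests on groups of gene ends). At the most CpG-rich quartile alone, 6 h B (1.15%) lay below untreated A (1.45%), so the groups overlapped (exact permutation p = 0.4, also after adjustment). Inside the windows themselves, pooled over libraries, 53 of 4727 calls of that quartile were undeaminated at 6 h (1.12%, 95% Wilson interval 0.858 to 1.46%) and 56 of 3978 untreated (1.41%, 1.09 to 1.82%). In the second quartile it was 57 of 969 calls (5.88%, 4.57 to 7.55%) against 8 of 959 (0.834%, 0.423 to 1.64%). The first quartile had few calls, 13 of 213 (6.10%, 3.60 to 10.2%) against 5 of 194 (2.58%, 1.11 to 5.89%), and its intervals overlapped. All these intervals treat calls as independent, also those on 1 read or in 1 library. After 12 h the pooled levels of the 4 quartiles, from CpG-poor to CpG-rich, were 29.2%, 14.1%, 3.21% and 3.00%.

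Of 17 bins made of CpG quartile, distance and 3′ ends, 4 were called, all below the library (23.5%, limma). The fourth quartile deviated by -5.09 ± 0.433 points within 0.5 kb (adjusted p = 6.76e-15) and by -3.59 ± 0.825 between 0.5 and 1 kb (adjusted p = 0.000369). The third quartile deviated by -4.75 ± 0.505 (adjusted p = 8.64e-12) and -2.93 ± 0.889 (adjusted p = 0.00764). From 1 kb on neither quartile was called, and both 6 h libraries were above 5% between 1 and 2 kb. CpG-poor starts of the second quartile had -1.68 ± 0.756 points within 0.5 kb, which did not pass (adjusted p = 0.105). Calls within 1 kb of a 3′ end stood at 7.72% and 6.63% at 6 h, a deviation of 0.918 ± 0.562 that did not pass (adjusted p = 0.205). Standardised for CpGs per read, the first 0.5 kb of the fourth and of the third quartile still passed, at -1.43 points (adjusted p = 0.0066) and -2.05 points (adjusted p = 0.0020). The bins between 0.5 and 1 kb did not (-2.12 and -1.84 points), nor did they with 1 call per read (-1.71 and -1.92 points). Without 6 h B the first 0.5 kb of both quartiles passed, and 2 bins were called in all. Without untreated A there were 6, and the quasi-binomial test called 0 with 4 at an unadjusted p under 0.05.

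Strand made it possible to set upstream against downstream. At CpG-poor starts the 0.5 kb upstream stood at 8.90% and 6.59% at 6 h and the 0.5 kb downstream at 4.84% and 3.92%, on 281 and 1063 calls upstream and 599 and 2681 downstream. The untreated libraries had 0.477%, 0.865% and 1.63% upstream and 0.934%, 2.00% and 0.962% downstream. Both 6 h libraries were lower downstream than upstream, a difference that was not tested. At CpG-rich starts the low level lay on both sides, with 2.17% and 1.31% upstream and 1.56% and 1.44% downstream. From 0.5 to 1 kb it was 4.22% and 4.27% upstream and 2.21% and 2.71% downstream, so the low stretch reached further into the gene than away from it in both libraries, again without a test.

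**Figure D2:**
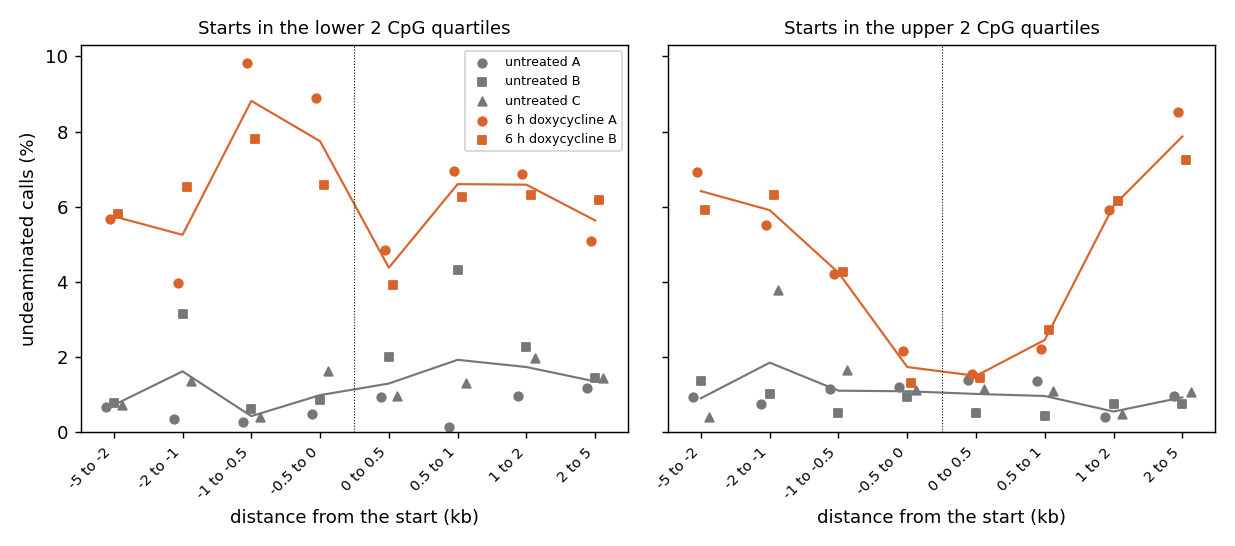
Percentage of undeaminated CpG calls (y axis) against distance from the transcription start in kb, negative upstream (x axis), for starts in the lower (left) and upper (right) 2 quartiles of CpGs in their window. Points are libraries, lines join group means and the dotted line marks the start. At CpG-rich starts the 6 h mean falls to 1.74% just upstream and 1.5% just downstream and is back at 6.03% between 1 and 2 kb, whereas at CpG-poor starts it is 7.74% and 4.38% on either side.

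Because gene ends and CpG-dense reads overlap, calls within 1 kb of an end were compared with calls elsewhere on reads of the same CpG class. Over all classes the ends stood at 3.80% and 3.61% at 6 h and the rest of the nuclear genome at 6.97% and 6.65%. On reads with 8 to 10 CpGs, calls near ends had 2.55% in both 6 h libraries and calls elsewhere 7.92% and 6.90%. The same reads in untreated A, B and C had 1.12%, 1.83% and 1.21% near ends and 1.06%, 1.03% and 1.46% elsewhere. For comparison, reads with 3 CpGs had 7.42% and 7.0% elsewhere, so that away from gene ends the levels of the 2 classes ranged over the same values. Where a read held 11 or more CpGs, the 6 h level was low at either place, with 1.93% and 1.55% near ends and 2.73% and 2.72% elsewhere.

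The difference in rise between ends and elsewhere was called in 4 of 7 classes (57.1%, limma). It was -4.71 ± 0.483 points on reads with 8 to 10 CpGs (adjusted p = 0.00138), -2.75 ± 0.721 with 6 or 7 (adjusted p = 0.0218) and -1.37 ± 0.354 with 4 or 5 (adjusted p = 0.0218). On single-CpG reads it had the other sign, 1.62 ± 0.384 points (adjusted p = 0.0218), with 7.18% and 7.63% near ends against 6.50% and 6.25% elsewhere. Reads with 2, 3 and 11 or more CpGs did not pass. Without untreated A only the class of 8 to 10 CpGs was called, and without untreated B 5 classes were. Without 6 h B, 2 classes passed. The logit scale and the quasi-binomial test each called 1, and both gave the class of 4 or 5 CpGs a value just above 0.

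**Figure D3:**
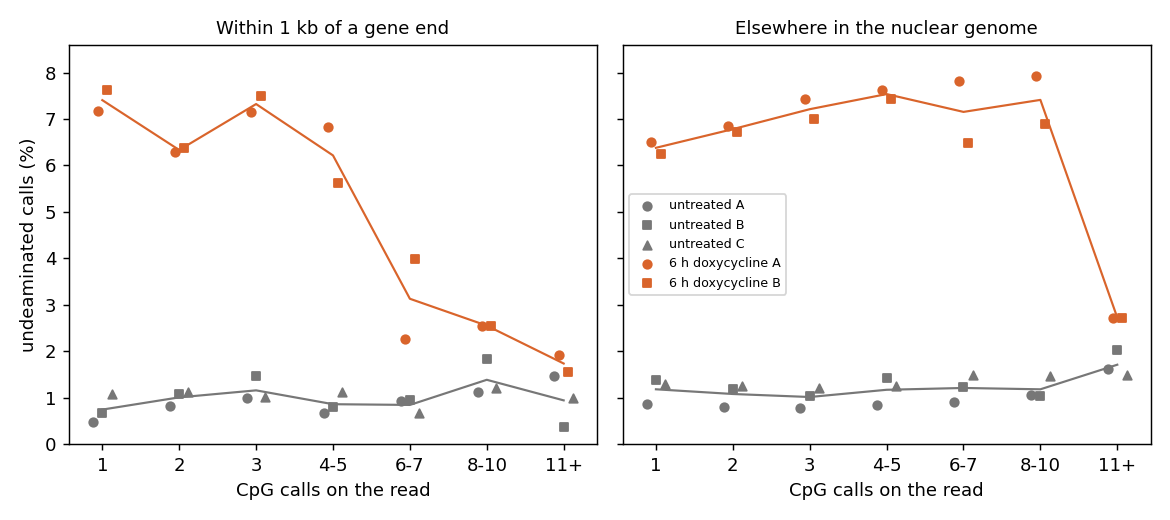
Percentage of undeaminated CpG calls (y axis) by CpG calls on the read (x axis), within 1 kb of a protein-coding gene end (left) and elsewhere in the nuclear genome (right). Points are libraries, grey untreated and orange 6 h, and lines join group means. On reads with 8 to 10 CpGs the 6 h mean is 2.55% near ends and 7.41% elsewhere, and on reads with 11 or more it is low in both panels.

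Across chromosomes the early rise was even. The autosomes other than 17, and the X, rose by 4.90 points (chromosome 18) to 5.87 points (chromosome 19), that is by 92.6 to 111% of the library's rise. The X stood at 6.90% and 6.83% at 6 h, from 1.29%, 1.03% and 1.10%. Of 23 units, 3 were called (13.0%, limma), all below the library. They were chromosome 17 (-1.42 ± 0.199 points, adjusted p = 0.00216), the mitochondrial genome (-5.14 ± 1.25, adjusted p = 0.0252) and the unplaced contigs (-3.51 ± 0.820, adjusted p = 0.0252). Mitochondrial DNA showed 1 of 130 and 1 of 265 undeaminated calls at 6 h, and 1 of 133, 0 of 63 and 0 of 136 untreated. The untreated counts of 0 allow up to 4.76% and 2.21%. The 6 h levels were 0.769% and 0.377%, so mitochondrial DNA did not rise as its libraries did, and a much smaller rise could not be seen in such counts.

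Chromosome 17 stood at 4.95% and 5.08% at 6 h. It holds 1 window of 10 kb (chromosome 17, 39840000 to 39849999, GRCm38) with at least 200 calls over the 8 libraries, a stack far above the usual depth. In that window the levels were 4.43%, 2.47% and 1.2% in untreated A, B and C and 1.18% and 1.14% at 6 h. The stack therefore did not rise with its libraries. Untreated C and 6 h A were nearly equal, with 8 of 664 and 8 of 677 calls undeaminated. The means lay 1.54 points apart because of untreated A (36 of 812) and B (11 of 445). The stack's own difference was not tested. The remaining calls of the chromosome had 0.632%, 1.08% and 1.58% untreated and 5.79% and 5.59% at 6 h. Without the 28 such windows of the genome, chromosome 17 deviated by -0.663 ± 0.287 points (adjusted p = 0.399). The unplaced contigs then deviated by -6.07 points (adjusted p = 0.0861), and mitochondrial DNA, which lies in such windows, was not among the 22 units tested. No unit was called in that fit (limma). With 1 call per read none was called either, at -1.02 points for chromosome 17 (adjusted p = 0.0763), -5.65 for mitochondrial DNA (adjusted p = 0.169) and -1.48 for the contigs (adjusted p = 0.640). The quasi-binomial test called none, with 3 at an unadjusted p under 0.05. Without untreated A, untreated B or 6 h A, 1 unit was called, and without 6 h B none.

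**Figure D4:**
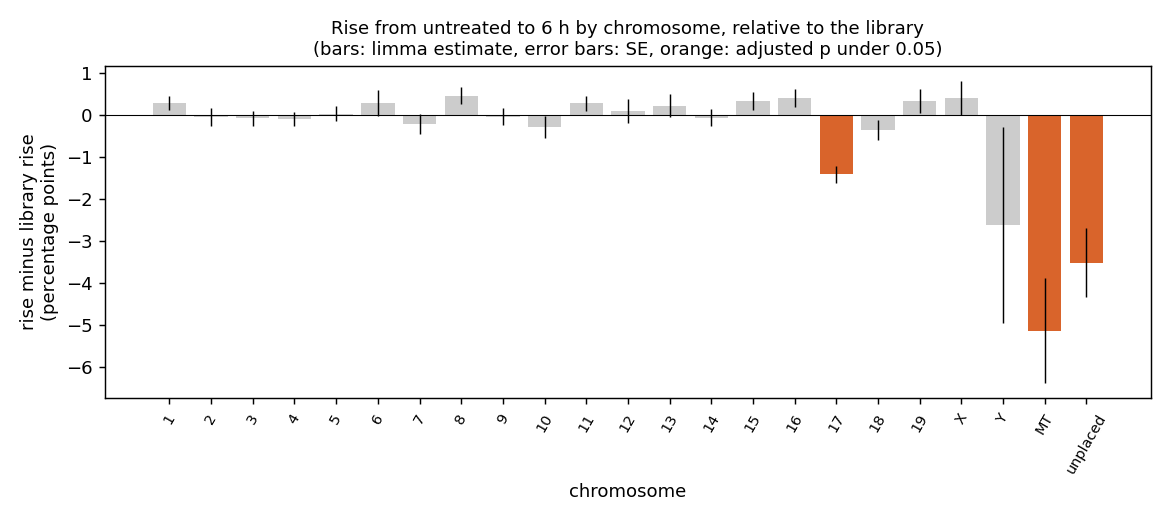
Rise from untreated to 6 h on each chromosome minus the rise of the whole library, in percentage points (y axis). Bars are limma estimates over 5 libraries with their SE, and orange bars have an adjusted p under 0.05. Chromosome 17, the mitochondrial genome (MT) and the unplaced contigs lie at -1.42, -5.14 and -3.51, and the other bars lie within 1 point of 0 except Y, which rests on 454 calls at 6 h.

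Gene bodies were pooled by the length of the gene. Genes under 10 kb stood at 3.88% and 4.75% at 6 h, against 0.815%, 0.883% and 1.005% untreated. Genes of 100 to 300 kb had 7.0% and 6.61%, from 0.861%, 1.22% and 1.24%. The short genes rose by 64.5% of the library's rise and the long ones by 108%, with both 6 h libraries above all untreated ones in each class. Of 6 length classes, 3 were called (50.0%, limma): under 10 kb (-1.58 ± 0.282 points, adjusted p = 0.0081), 30 to 100 kb (0.305 ± 0.0778, adjusted p = 0.0206) and 100 to 300 kb (0.385 ± 0.0719, adjusted p = 0.0081). Genes over 1000 kb varied between libraries, with 8.47% in 6 h A and 5.77% in 6 h B, and did not pass (-0.129 ± 0.519). The class under 10 kb did not pass once levels were standardised for CpGs per read (-0.307 points, adjusted p = 0.657) or with 1 call per read (-0.0881, adjusted p = 0.837). The split of calls was 2 above and 1 below as fitted, 0 above and 1 below with median centring, and 2 above and 0 below with standardised levels. Without untreated A there were 2 called classes, without untreated B 4, and without untreated C or without 6 h B 1.

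Single genes were thinly covered, and 354 had at least 10 calls in each of the 5 libraries. None was called (0.0%, limma), with 47 at an unadjusted p under 0.05, while the quasi-binomial test called 16, all above the library. Where a gene had undeaminated calls at 6 h but 0 in every untreated library, the log-odds estimate of that test has no finite value. Atp9a, which it did not call, had an estimate of 21.4. How such counts of 0 acted on the number of genes it called was not tested. Both 6 h levels lay above all untreated levels in 168 of the 354 genes (47.5%). Both 6 h deviations lay above all untreated ones in 55 genes (15.5%) and below all in 80 (22.6%), around a median deviation of -0.365 points. A gene with 0 undeaminated calls in both 6 h libraries lies below all untreated deviations whatever its untreated counts. Ajuba, with 0 such calls in all 5 libraries, had a deviation of -5.22 points. The count of genes below therefore depends on depth. Leaving out 6 h A gave 161 called genes of 572 tested, and leaving out 6 h B 29 of 354, each with 1 library left at 6 h.

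Among genes whose 6 h deviations both lay above all untreated ones, the largest deviations were those of Atp9a, a phospholipid flippase, and Itgb5, an integrin beta subunit. Atp9a (chromosome 2, 168634438 to 168742370) had 0 of 63 undeaminated calls untreated, which allows up to 4.76%, and 1 of 11 and 8 of 39 at 6 h. Itgb5 (chromosome 16, 33829665 to 33949338) had 0 of 42, up to 7.14%, and 1 of 15 and 6 of 24. Kcnb2, a voltage-gated potassium channel, had 0 of 69 (up to 4.35%), then 1 of 12 and 5 of 23. Xkr6, of the XK-related membrane proteins, had 0 of 55 (up to 5.45%), then 3 of 11 and 5 of 38. Their deviations were 10.97 to 12.9 points, and none passed the adjustment (adjusted p 0.230 to 0.372).

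Among genes whose 6 h deviations both lay below all untreated ones, the largest deviations were those of AY036118, Nrg3, Tmtc2 and Chl1. AY036118 (chromosome 17, 39848112 to 39898385) begins inside the high-copy window described above. It had 19 of 172, 2 of 109 and 0 of 58 undeaminated calls untreated, and 0 of 80 and 2 of 244 at 6 h (deviation -11.6 ± 6.22 points, adjusted p = 0.530). Nrg3, a neuregulin growth factor (chromosome 14, 38365102 to 39473235), had 2 of 46 untreated and 0 of 40 at 6 h, which allows up to 7.50%. Tmtc2 had 2 of 42 and 0 of 41 (up to 7.32%), and Chl1, a neural adhesion molecule, 2 of 47 and 0 of 47 (up to 6.38%). Nrg3, Tmtc2 and Chl1 had no undeaminated call at 6 h, which by itself places a gene on this side. For Nrg3 and Tmtc2 the limit lies above the 6 h library level, so a lower level there was not detectable at this depth, and for Chl1 it lies just under that level.

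The 7 gene lists gave no call (0.0%, limma, adjusted p = 0.978 for each, with 0 at an unadjusted p under 0.05 and 0 by the quasi-binomial test). Pluripotency genes, the transcription network of these cells, had 1 of 216 undeaminated calls untreated (0.463%) and 16 of 219 at 6 h (7.31%), with 15.5% in 6 h A and 3.38% in 6 h B. Within that list Esrrb, an orphan nuclear receptor, had 2 of 19 and 3 of 57 calls at 6 h, and Nr5a2, another nuclear receptor, 1 of 13 and 1 of 30. Germline genes had 3 of 163 (1.84%) and 10 of 167 (5.99%), with the 3 untreated calls all in untreated B. Tdrd9 had 2 of 33 and Tdrd1 1 of 20 at 6 h, both tudor-domain proteins of the piRNA pathway. Imprinted genes had 10 of 329 (3.04%) and 37 of 464 (7.97%), and there Kcnq1, a potassium channel, had 0 of 15 and 9 of 53. Airn, the antisense transcript of the Igf2r cluster, had 0 of 35 calls untreated, which allows up to 8.57%, and 2 of 9 and 2 of 40 at 6 h. Genes of the DNA methylation machinery had 4 of 188 (2.13%) and 15 of 268 (5.60%), with 2.08% in 6 h A and 6.36% in 6 h B. The Tet3 gene (chromosome 6, 83362373 to 83457208) had 0 of 17 and 5 of 35 at 6 h after 1 of 57 untreated. Its deviation was 2.95 ± 4.44 points (limma, adjusted p = 0.799). Calls there were not told apart from any calls on the TET3 sequence carried by the transposon. Dnmt3a, a de novo methyltransferase, had 0 of 25 untreated, up to 12.0%, and 3 of 59 at 6 h.

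Early lineage genes, mostly transcription factors, had 5 of 193 undeaminated calls untreated (2.59%) and 9 of 193 at 6 h (4.66%). Their level was 11.1% in 6 h A and 3.18% in 6 h B. Of these genes, Pax3 had 0 of 36 untreated (up to 8.33%) and 3 of 6 and 2 of 25 at 6 h, while Gata4 had 0 of 23 at 6 h (up to 13.0%). Housekeeping genes had 0 of 71 untreated and 4 of 91 at 6 h (4.40%), all 4 in 6 h B. The acidic ribosomal protein gene Rplp0 had 1 of 31 at 6 h, and the beta-actin gene Actb 0 of 21 (up to 14.3%). The list of very long neuronal genes was the only one with many calls, 42 of 3008 (1.40%) and 190 of 2950 (6.44%), at 8.66% and 5.83% in the 6 h libraries. Of its members, 23 were tested singly and 0 called, with a median deviation of 0.00172 points beside -0.365 over all 354 genes. Cdh13, an adhesion molecule of the cadherin family, had 5 of 66 and 14 of 203 at 6 h after 2 of 251 untreated. Wwox, a WW-domain oxidoreductase, had 6 of 40 and 13 of 169 after 5 of 212. The deviations were 1.10 ± 1.56 and 1.48 ± 1.68 points, and neither passed.

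On single reads, early undeaminated calls were spread over many reads. In 6 h A, 3983 of 33604 reads with a CpG (11.9%) carried at least 1 such call, and in 6 h B 14825 of 128527 (11.5%). The untreated libraries had 1.53%, 1.90% and 2.06%. Of the 6 h reads with an undeaminated call, 83.3% and 82.3% had exactly 1, close to the 82.9%, 76.0% and 80.3% of the untreated libraries. These shares include reads with a single CpG, which can carry no more than 1. Reads that had at least 3 CpGs and were undeaminated at all of them held 2.94% and 3.17% of the undeaminated calls at 6 h, against 6.06%, 11.8% and 8.34% in the untreated libraries. Such reads did not become rarer among all reads with a CpG. They were 41 of 33604 and 167 of 128527 at 6 h, and 23 of 70241, 32 of 39654 and 28 of 46254 untreated.

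Reads that carried any undeaminated call became more frequent with CpG number at 6 h, up to 6 or 7 CpGs, and were less frequent again at 11 or more. They made up 6.53% and 6.30% of reads of 1 CpG, 17.8% and 16.7% of reads of 3, 27.5% and 24.2% of reads of 6 or 7, and 27.1% and 24.5% of reads of 8 to 10. On reads of 11 or more it was 15.9% and 14.1%, against 8.91%, 5.52% and 7.01% in untreated A, B and C. Independent calls would have given 36.8% and 32.9% on reads of 6 or 7 CpGs, so fewer reads carried the undeaminated calls than under independence. The same held without doxycycline, with 3.68%, 4.03% and 4.36% of such reads in untreated A, B and C. Independence would have given 5.67%, 7.31% and 8.21% there. Of the reads of 11 or more CpGs with any such call, 27 of 65 in 6 h A and 111 of 237 in 6 h B carried more than 1. In untreated A, B and C it was 31 of 73, 10 of 23 and 13 of 35, so this was not particular to 6 h.

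The departure from independence was measured next over all reads. Among reads with at least 2 CpGs, 3.75% and 3.71% had 2 or more undeaminated calls at 6 h. If calls were independent, at the levels measured for each number of CpGs per read, the share would be 1.93% and 1.70%. The ratio was 1.95 and 2.18 at 6 h (2.06 ± 0.162, SD, n = 2) and 4.34, 7.58 and 7.33 in untreated A, B and C (6.42 ± 1.80, SD, n = 3). The groups did not overlap, and at 12 h the ratio was 1.16 ± 0.0406 (SD, n = 3). The exact permutation test of 6 h against 0 h gave p = 0.2, the smallest possible. The largest value this ratio can take falls as the level rises. The lower ratios at 6 h and 12 h therefore do not show that calls went together less than in untreated cells. The untreated ratio rests on 181 to 188 such reads per library.

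Neighbouring CpGs on a read showed over what distance the calls went together. For a pair of neighbours, the share with both undeaminated was 4.07 and 4.26 times the product of their levels at 6 h (4.17 ± 0.136, SD, n = 2). In the untreated libraries it was 37.2, 43.9 and 32.2 times (37.8 ± 5.84, SD, n = 3), and at 12 h 1.85 times (exact permutation p = 0.2 for 6 h against 0 h, the smallest possible). Here too the ratio cannot exceed the inverse of the level, so its fall with time is no measure of how strongly calls went together. At 1 to 10 bp, a CpG beside an undeaminated one was itself undeaminated in 32.2% and 31.0% of cases at 6 h. At 11 to 25 bp it was 25.99% and 26.98%, at 26 to 50 bp 24.6% and 24.1%, and at 51 to 100 bp 19.3% and 19.4%. The 2 libraries followed each other closely up to 100 bp. Beyond that they read 7.62% and 16.1%, where 6 h A holds only 4 pairs with both undeaminated. The untreated libraries had higher shares that also fell with distance, at 45.3%, 61.2% and 48.1% at 1 to 10 bp and 23.1%, 42.8% and 33.0% at 51 to 100 bp, so the pattern was also present in calls made without doxycycline. At 6 h, beside a deaminated neighbour the share was 4.09% and 3.77% at 1 to 10 bp and 5.88% and 5.83% at 51 to 100 bp.

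**Figure D5:**
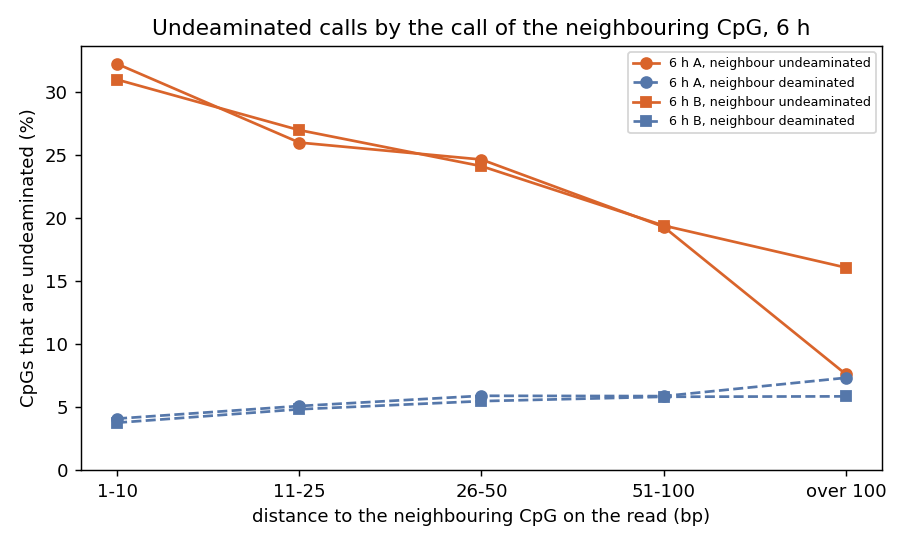
Percentage of CpGs that were undeaminated at 6 h (y axis) by distance to the neighbouring CpG on the same read in bp (x axis), for an undeaminated (orange) or a deaminated (blue) neighbour, with 1 line per library. Beside an undeaminated neighbour the share falls from over 30% at 1 to 10 bp to about 19.4% at 51 to 100 bp, and beside a deaminated neighbour it stays between 3.77 and 7.33%.

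The pair ratio was also taken within narrower sets of reads. Away from gene ends it was 3.59 and 3.80 at 6 h, and on reads of exactly 3 CpGs there 3.09 and 3.61. On reads with at least 4 CpGs and exactly 2 undeaminated calls, the 2 calls were neighbours in 58.1% of 234 reads of 6 h A and in 51.2% of 943 reads of 6 h B. Random placement on the same reads would give 38.7% and 39.2%. The untreated libraries had neighbours in 22 of 52, 24 of 32 and 25 of 36 such reads, against 33.3%, 37.6% and 36.8% for random placement. At 12 h the shares were 48.4 to 49.4%, against 42.0 to 42.3%. In both 6 h libraries neighbours were thus more frequent than random placement gives, and no test was run on these shares.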

How the data were processed

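CpG calls of 5 libraries were analysed, with 12 h libraries as side values. Each deposited table was written by Bismark's methylation extractor 0.22.3, per the file headers, with 1 line per read and CpG. The deposited value is a call letter, undeaminated or deaminated, with no score or scaling. Trim Galore, Bismark 0.22.3 and GRCm38 are named in the submitters' processing notes. Per the labels' protocols, 10 ng of DNA in fragments of about 300 bp were sequenced in 3 runs with 150 bp chemistry. How reads were trimmed and whether duplicates were removed is not given in the sources used here. Reads identical to another in positions and calls made up 1.48 to 2.60% of those with 4 CpGs or more.

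Groups came from the titles. Regions, gene lists and read classes were chosen with earlier results of these data known, and the bins by CpGs of the nearest start were added last. Each region's level minus its library's level was fitted with limma 3.58.1 (R 4.3.3) over the 5 libraries. Fits were weighted by calls and binomial variance, and variances were moderated over the regions of a family. Adjustment was by Benjamini-Hochberg within each family, with a threshold of 0.05. The script was tested on simulated data. For the region fits, these were independent calls at each library's level, with no added spread between libraries. Real calls on 1 read were not independent, so that test cannot tell the error rate of the fits here. Library values were compared by two-sided exact permutation tests (10 arrangements). Gene coordinates came from the RefSeq table of GRCm38.p6, which gives no exons, so a gene body is its whole span. Starts on chromosome 18 were not used here. Named genes were the 4 largest deviations on each side whose 6 h deviations both lay beyond all untreated ones, since none passed the threshold, and the 2 members of each list with the most calls. Intervals and limits from a count of 0 (3 counts) cover counting error only. Alternatives were each library left out, the replicate letter as a block, identical reads counted once, 1 call per read, high-copy windows (at least 200 calls in 10 kb) left out, all 8 libraries, no weights, logit scale, a quasi-binomial test, median centring, standardising for CpGs per read, and other minimums and end distances.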

Additional observations from a re-analysis of the deposited data

How the results depend on the processing

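Leaving out each library in turn gave 2 to 5 called read classes, 0 to 6 distance bins, 0 to 3 chromosomes, 1 to 4 length classes, 1 to 5 contrasts of ends with elsewhere, 0 to 161 genes and 2 to 6 bins by CpGs of the nearest start. The quasi-binomial test called 3 read classes, 0 distance bins, 0 chromosomes, 1 length class, 1 end contrast, 16 genes and 0 start bins. The logit scale called 2 distance bins, 0 length classes, 1 end contrast and 2 start bins. With 1 call per read, 0 chromosomes, 1 length class and 2 start bins were called. Without high-copy windows 0 chromosomes were called, with all 8 libraries 1 length class, with median centring 1 length class and 2 genes, and with standardised levels 2 start bins. With the replicate letter as a block, 0 length classes, 2 end contrasts, 2 genes and 9 start bins were called. The labels do not say whether the letters link libraries across times. The A minus B difference at 6 h and that at 0 h correlated at r = 0.0616 over 1204 windows of 1 Mb, with 2 shared letters. With a minimum of 20 calls, counting error in such windows could hide a pairing, so this value cannot decide it. The cause of these shifts was not tested. The contrast of ends with elsewhere on reads with 4 or 5 CpGs changed sign on the logit scale (0.00758) and in the quasi-binomial test (0.0248). Reads with 3 and with 11 or more CpGs and the end contrast at 8 to 10 CpGs passed under all 14 alternatives run on each. With 5 libraries and 10 calls or more per gene, single genes are limited by depth.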
